A study of Ettlia oleoabundans with 10 samples.

Results

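This account covers scaffold families of Ettlia oleoabundans (strain UTEX # 1185), a single-celled green alga known for storing oil, whose transcript level was lower in strong salt but not in both nitrate-starved cultures. They numbered 306 of the 10122 families in the deposited table. Each was chosen from its expression values alone, on the scale L = log2(value + 1). The reference was 3 libraries taken as nitrate-replete (1.5 mM nitrate, 3 mM nitrate and the control). A family is called lowered in a library when its L was at least 1 below the lowest of these 3. It is called raised when its L was at least 1 above the highest of them. Members were lowered at both 300 and 600 mM NaCl and were not lowered at both 0 and 0.38 mM nitrate. These libraries therefore describe the members and test nothing. The libraries of 75 mM NaCl, 150 mM NaCl and 0.75 mM nitrate took no part in the choice, although they are set against the same 3 replete libraries.

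Every culture was grown for 6 days on constant light and gave 1 poly(A)-selected library, so no value has a replicate error and no difference has a test. Cultures received 0, 0.38, 0.75, 1.5, 3 or 9 mM nitrate, or 42, 75, 150, 300 or 600 mM NaCl. The control, with 9 mM nitrate and 42 mM NaCl, belongs to both series. The labels give no nitrate concentration for the 75 to 600 mM NaCl cultures and no NaCl concentration for the 0 to 3 mM nitrate cultures.

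Strong salt exposes an alga to water loss and to sodium, and green algae are known to respond by exporting sodium, making compatible solutes such as glycerol or proline, and growing more slowly. Nitrate starvation removes the nitrogen source, and green algae then commonly dismantle nitrogen-rich photosynthetic proteins and store starch and oil. The deposited table does not pair families with genes, so no function is given for any of them.

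The values are expression levels, taken here as already scaled for length and depth, which the values do not settle. The read depth is unknown. The library total was lowest for 0.38 mM nitrate (362924) and highest for 300 mM NaCl (695913). The background used throughout is the 8374 families with a value of at least 1 in each replete library, which are those that the rule could select, and members are 3.65% of it. The background's median log2 difference from the mean of the replete libraries was 0.17, 0.30 and 0.16 at 75, 150 and 300 mM NaCl, and 0.15 and -0.12 at 0 and 0.38 mM nitrate. It was within 0.1 of 0 elsewhere. Title codes beginning with RAA mark the 0.38 mM nitrate and 150 mM NaCl libraries, and codes c1 to c8 the other 8. The labels do not say what these codes mean.

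The members were mostly moderate in level under replete conditions. Their mean value over the 3 replete libraries had a median of 14.7 and quartiles of 5.74 and 32.4, against a median of 20.3 over the background, and it ran from 1.42 to 607. In 216 members each replete value was at least 5, and in 90 at least 1 was lower. The range of L over the 3 replete libraries had a median of 0.41 in members and 0.35 in the background, and it reached 1 or more in 30 members. Together the members made up 0.257% and 0.227% of the library total at 300 and 600 mM NaCl, against 1.93%, 1.80% and 1.97% at 1.5 mM nitrate, 3 mM nitrate and in the control. Their share was 1.60%, 3.76% and 3.09% of the total at 0, 0.38 and 0.75 mM nitrate, and 1.08% and 0.932% at 75 and 150 mM NaCl. The summed level was thus lowest in the 2 salt libraries of the rule and highest in the cultures with 0.38 and 0.75 mM nitrate. Single families weighed heavily in these sums. Of 13653 at 0.38 mM nitrate, 906_c0 had 1434 and 533_c0 had 1418. Of 14630 at 0.75 mM they had 2091 and 848. The sums were 9131, 9203 and 9388 at 1.5 mM nitrate, 3 mM nitrate and in the control. The members' median log2 difference from the replete mean was only -0.05 at 0.38 mM and 0.32 at 0.75 mM nitrate.

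**Figure D1:**
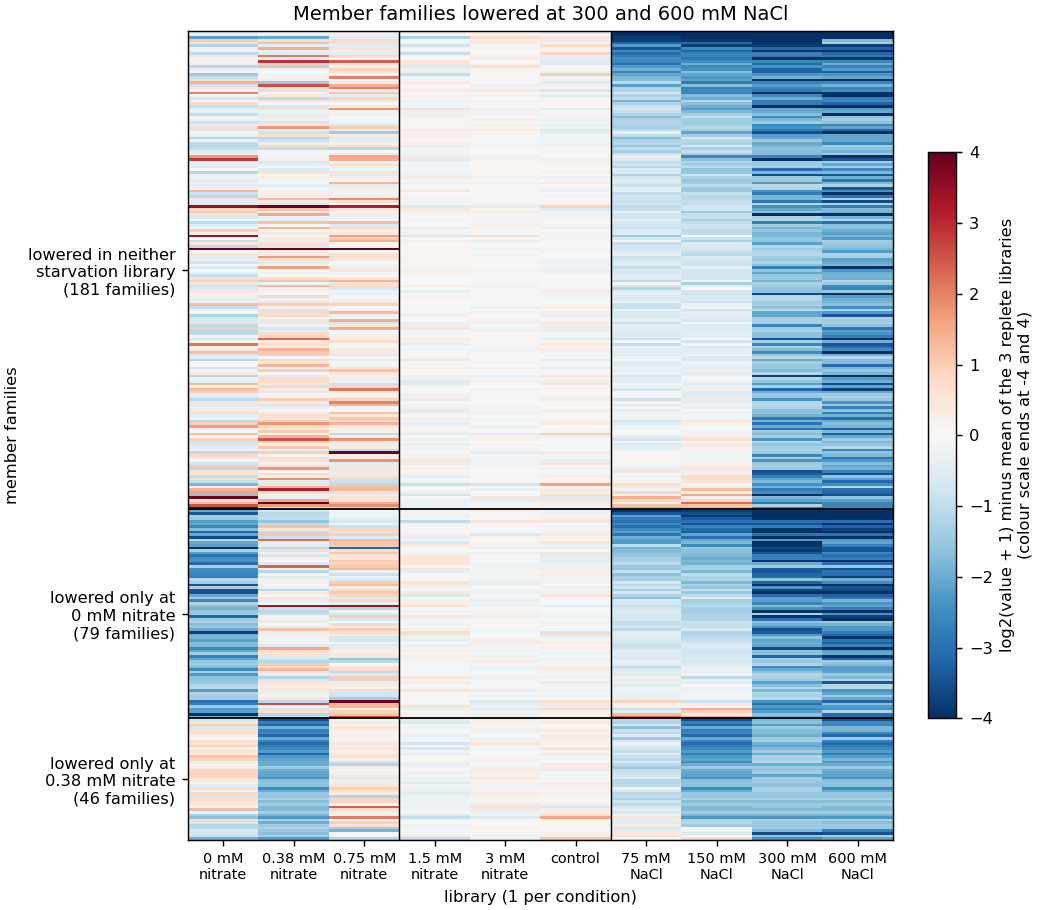
Each line is 1 of the 306 members and each column 1 library, coloured by log2(value + 1) minus the mean of the 3 replete libraries (1.5 and 3 mM nitrate, control), with families grouped by their state in the starvation libraries and ordered within a group by their level at 75 and 150 mM NaCl. The 300 and 600 mM NaCl columns are blue throughout because of the rule, and the 46 families lowered only at 0.38 mM nitrate are mostly blue at 150 mM NaCl as well.

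At 300 and 600 mM NaCl the losses ran from the 1 log2 unit that the rule asked to far larger ones. The gap between the lowest replete library and the higher of the 2 salt libraries had a median of 1.48 log2 units and quartiles of 1.19 and 2.15. It was at least 2 in 87 members, at least 3 in 36 and at least 4 in 14. Of the background, 6.88% were lowered at 300 mM, 11.7% at 600 mM and 4.32% at both concentrations (362 families), shares that the rule itself used. Listed at 0 were 53 members at 300 mM (17.3%, against 1.07% of the background), 76 at 600 mM (24.8%, against 1.84%) and 41 at both (13.4%, against 0.525%), an excess that the rule favours. The 41 had a median replete mean of 2.93, and 7 of them were also listed at 0 at 75 mM NaCl and 18 at 150 mM.

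Unless stated otherwise, the families named are the top 2 of each pattern among members with at least 5 in each replete library. The deepest losses were those of 5594_c0 and 3187_c0. Family 5594_c0 was listed at 0 in both the 300 and 600 mM NaCl libraries, against 66.3, 68 and 76.8 in the 1.5 mM nitrate, 3 mM nitrate and control libraries. It had 14.4 and 6.44 at 75 and 150 mM NaCl, and 6.81, 34.7 and 45.3 at 0, 0.38 and 0.75 mM nitrate. Its level was lower at each higher NaCl concentration up to 300 mM, and also lower at each lower nitrate concentration. Family 3187_c0 had 0.54 and 0.48 at 300 and 600 mM NaCl, against 74.6, 84 and 87.8 in the 1.5 mM nitrate, 3 mM nitrate and control libraries, and 13.5 and 7.98 at 75 and 150 mM NaCl. Its nitrate series ran between 64.6 (0.38 mM) and 101 (0 mM), so the near loss in salt stood beside a nitrate range of 0.64 log2 units.

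The most abundant members, by replete mean, were 298_c0 and 395_c0. Family 298_c0 had 473, 141, 52.5 and 2.04 at 75, 150, 300 and 600 mM NaCl, against 672, 666 and 482 in the 1.5 mM nitrate, 3 mM nitrate and control libraries. It was lower at every step of the NaCl series. With 0, 0.38 and 0.75 mM nitrate it had 571, 327 and 223, the lowest value of its nitrate series being that of 0.75 mM. Family 395_c0 had 255, 215, 79.3 and 86.4 at 75, 150, 300 and 600 mM NaCl, against 419, 428 and 407 in the 1.5 mM nitrate, 3 mM nitrate and control libraries. It was also lowered at 0 mM nitrate, with 148, but not at the next concentrations, with 309 (0.38 mM) and 310 (0.75 mM).

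The step beyond 300 mM NaCl varied among members. The L at 600 mM was within 1 of that at 300 mM in 247 members, at least 1 lower in 47 (15.4%, against 11.6% of the background) and at least 1 higher in 12 (3.92%, against 9% of the background). The median difference of 600 minus 300 mM was -0.17 in members and -0.19 in the background. Both libraries belong to the rule, and low values there leave little room for a step of 1. The 90 members with a replete value under 5 had at most 1.83 in either library, and 41 members were listed at 0 in both. Nothing is therefore read from the members' shares beside those of the background. The largest partial return was in 3081_c0, with 0.88 and 17.9 at 300 and 600 mM NaCl, against 51.4, 87.9 and 112 in the 1.5 mM nitrate, 3 mM nitrate and control libraries. It had 15.6 and 22 at 75 and 150 mM NaCl, so its level was near 0 at 300 mM and similar in the 75, 150 and 600 mM libraries. With 0, 0.38 and 0.75 mM nitrate it had 18.9, 61.8 and 174. Family 3437_c0 was listed at 0 at 300 mM and had 5.12 at 600 mM NaCl, with 0.65 and 0.77 at 75 and 150 mM, against 12.8, 18 and 12.7 in the 1.5 mM nitrate, 3 mM nitrate and control libraries. In starvation it had 21.9, 34.3 and 23.4 at 0, 0.38 and 0.75 mM, all above its replete values.

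**Figure D2:**
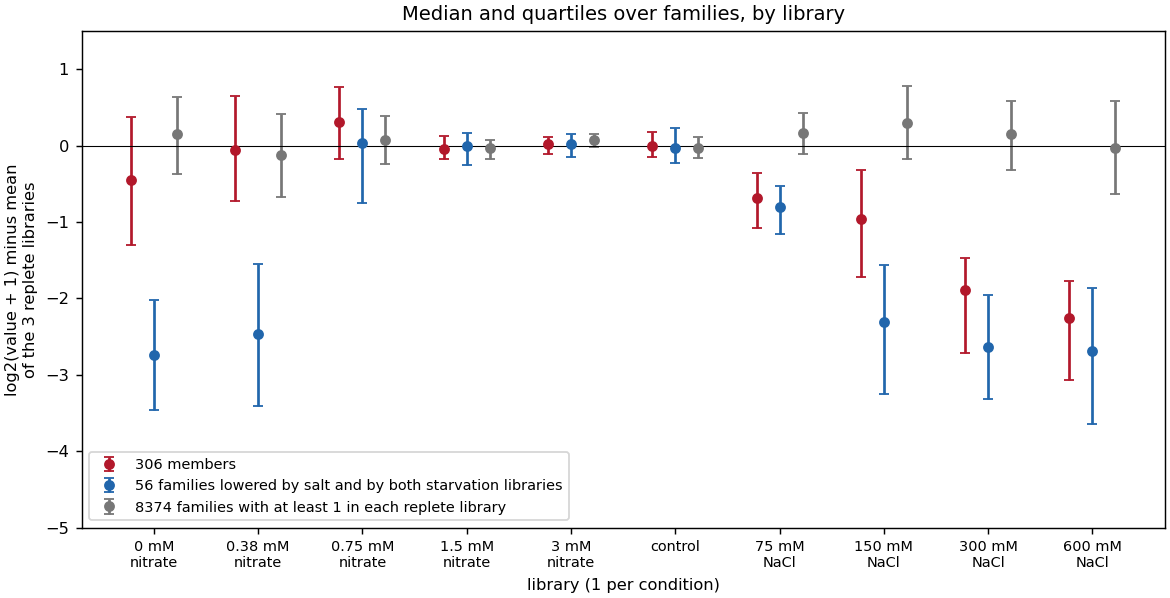
Points are medians and bars the quartiles over families of log2(value + 1) minus the mean of the 3 replete libraries, by library, for the 306 members (red), the 56 families lowered by salt and by both starvation libraries (blue) and the 8374 background families (grey). The members' medians are -0.68, -0.96, -1.88 and -2.25 at 75, 150, 300 and 600 mM NaCl.

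In the 2 NaCl libraries that the rule did not use, most members already lay under every replete library. At 75 mM NaCl 251 members (82.0%) were below all 3, where 18.1% of the background was. Lowered there were 61 members (19.9%), against 1.15% of the background. At 150 mM NaCl 247 members (80.7%) were below all 3, where 24.4% of the background was. Lowered there were 131 members (42.8%), against 5.85% of the background. Members were 61 of the 96 background families lowered at 75 mM NaCl (63.5%) and 131 of the 490 lowered at 150 mM (26.7%). Of the 96, 15 were among the 56 families lowered by salt and by both starvation libraries, so lowering at 75 mM was not particular to members. Nor was a level under every replete library. Of these 56 families, 50 (89.3%) lay below all 3 at 75 mM and 54 (96.4%) at 150 mM NaCl. The replete libraries are shared with the rule, so these shares are no independent test. Relative to the median of the background, the members' median was -0.85, -1.27, -2.04 and -2.22 at 75, 150, 300 and 600 mM NaCl. A lower L at every step of the NaCl series, through all 5 libraries, was found in 65 members (21.2%), against 2.35% of the background, and the rule itself favours this order.

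By these 2 libraries, 48 members were lowered at both 75 and 150 mM (15.7%, against 0.884% of the background), 83 only at 150 mM (27.1%, against 4.97%), 13 only at 75 mM (4.25%, against 0.263%) and 162 at neither. At 75 mM NaCl L was at least 2 below the lowest replete library in 22 members, where this held for 28 background families (0.334%). The most abundant members lowered from 75 mM upward were 1470_c0 and 843_c0. Family 1470_c0 had 11.1, 21.5, 14.4 and 12.7 at 75, 150, 300 and 600 mM NaCl, against 135, 148 and 114 in the 1.5 mM nitrate, 3 mM nitrate and control libraries. Its 75 mM value was the lowest of the NaCl series, and with 0, 0.38 and 0.75 mM nitrate it had 113, 367 and 196. Family 843_c0 had 38, 36.1, 10.2 and 18.9 at 75, 150, 300 and 600 mM NaCl, against 113, 93 and 169 in the 1.5 mM nitrate, 3 mM nitrate and control libraries. Without nitrate it had 26, a value within its salt range, but 107 and 260 with 0.38 and 0.75 mM. The largest difference at 75 mM was that of 4048_c0, which was picked once its values were known. It had 1.04, 1.9, 1.05 and 1.81 at 75, 150, 300 and 600 mM NaCl, against 115, 113 and 58.7 in the 1.5 mM nitrate, 3 mM nitrate and control libraries, and 73.4, 90.3 and 108 at 0, 0.38 and 0.75 mM nitrate. The 4 salt libraries of 4048_c0 all lay between 1.04 and 1.9 and all its other libraries at 58.7 or above.

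**Figure D3:**
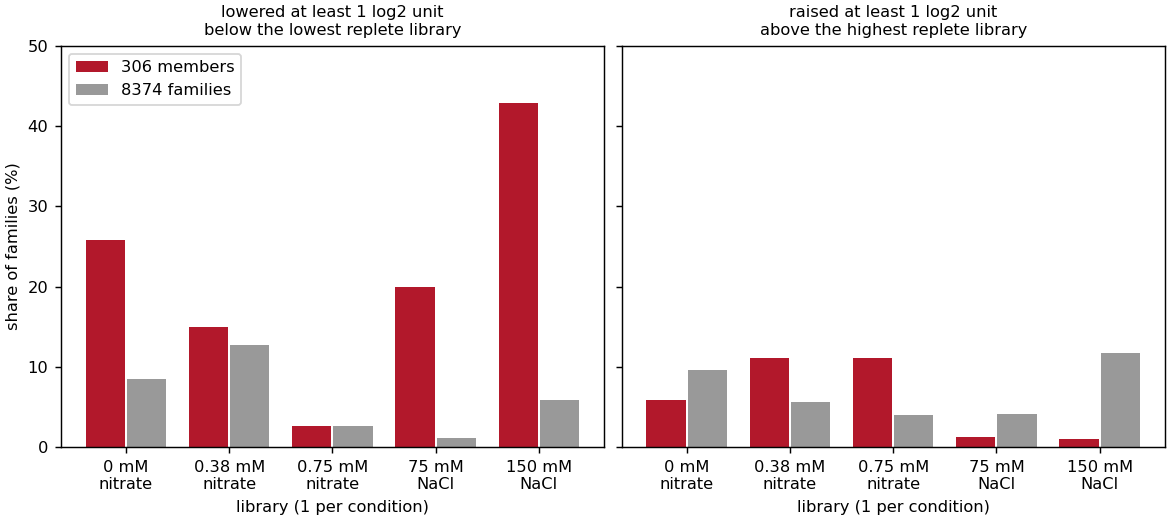
Bars give the share of families, in percent, lowered (left) or raised (right) relative to the 3 replete libraries, for the 306 members (red) and the 8374 background families (grey), at 0, 0.38 and 0.75 mM nitrate and 75 and 150 mM NaCl. Members were lowered in 42.8% at 150 mM NaCl, where the background had 5.85%, and in 2.61% at 0.75 mM nitrate, where it had 2.71%.

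Many members were not level in both starvation libraries. Of the 306, 181 (59.2%) were lowered in neither, 79 (25.8%) only at 0 mM and 46 (15.0%) only at 0.38 mM. In the background 8.48% were lowered at 0 mM and 2.76% at 0 mM without 0.38 mM, while 12.7% were lowered at 0.38 mM and 7.02% at 0.38 mM without 0 mM. Over all members the median log2 difference from the replete mean was -0.45, -0.05 and 0.32 at 0, 0.38 and 0.75 mM nitrate, and relative to the background median it was -0.60, 0.07 and 0.24. Neither lowered nor raised in any of the 3 low-nitrate libraries were 126 members (41.2%) and 69.7% of the background.

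The 181 members lowered in neither starvation library had medians of -0.14, 0.22 and 0.33 at 0, 0.38 and 0.75 mM nitrate. Among them, 33 were lowered at 75 mM NaCl (18.2%, against 1.15% of the background) and 56 at 150 mM (30.9%, against 5.85%). The steadiest over the 6 nitrate libraries were 6216_c0 and 6575_c0. Family 6216_c0 had 12.4, 9.44, 5.01 and 4.15 at 75, 150, 300 and 600 mM NaCl, against 15.7 to 19 over the nitrate series, a range of 0.26 log2 units. Family 6575_c0 had 18.4, 8.9, 9.74 and 9.83 at 75, 150, 300 and 600 mM NaCl, against 19.1 to 24.6 over the nitrate series. The NaCl values of both lay under all of their nitrate values, with 6216_c0 lower at each step and 6575_c0 similar in the last 3 libraries.

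The 79 members lowered only at 0 mM nitrate had medians of -2.02, -0.18 and 0.32 at 0, 0.38 and 0.75 mM nitrate, and of -2.38 and -2.88 at 300 and 600 mM NaCl. Among them 24 were lowered at 75 mM NaCl (30.4%, against 1.15% of the background) and 34 at 150 mM (43.0%, against 5.85%). The most abundant were 395_c0, given above, and 2461_c0. Family 2461_c0 had 104, 69.7, 46.8 and 8.82 at 75, 150, 300 and 600 mM NaCl, against 167, 154 and 124 in the 1.5 mM nitrate, 3 mM nitrate and control libraries. With 0, 0.38 and 0.75 mM nitrate it had 40.1, 179 and 92.4. Its starved levels lay on both sides of the replete ones, and the 0.38 mM value was the highest of all 10 libraries.

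The 46 members lowered only at 0.38 mM nitrate were mostly low in level. Their replete mean had a median of 3.51, against 18.2 in the members lowered in neither and 20.9 in those lowered only at 0 mM, and 35 of the 46 had a replete value under 5. At 0.38 mM nitrate 37 of the 46 were listed at 0, and all 37 were also listed at 0 at 150 mM NaCl, the other library with an RAA code. Of all 8374 background families, 138 were listed at 0 at 0.38 mM nitrate, 145 at 150 mM NaCl and 134 in both. The overlap of zeros was thus shared by the background and not particular to these members. In the 46 families, 41 were lowered at 150 mM NaCl (89.1%, against 5.85% of the background) and 4 at 75 mM (8.70%, against 1.15%). Their median at 0 mM nitrate was 0.37. Title code and condition cannot be told apart for them, since each RAA library is the only one of its concentration. Without the 46, 90 of 260 members were lowered at 150 mM NaCl (34.6%). The most abundant of the 46 were 691_c0 and 2561_c0. Family 691_c0 had 492, 250, 30.8 and 32.8 at 75, 150, 300 and 600 mM NaCl, against 348, 348 and 436 in the 1.5 mM nitrate, 3 mM nitrate and control libraries, and 220, 116 and 363 with 0, 0.38 and 0.75 mM nitrate. Family 2561_c0 had 41.8, 25.6, 20.1 and 17.2 at 75, 150, 300 and 600 mM NaCl, against 55.2, 58.9 and 58.9 in the 1.5 mM nitrate, 3 mM nitrate and control libraries, and 35, 14 and 115 with 0, 0.38 and 0.75 mM nitrate. Both were lowest among the nitrate libraries at 0.38 mM, with 0 mM next.

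**Figure D4:**
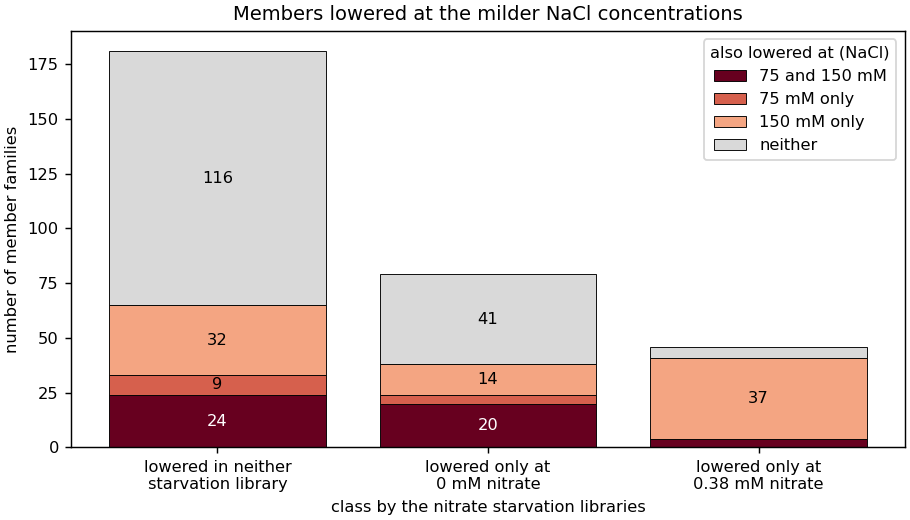
Stacked bars count the 306 members by their state in the starvation libraries (181 lowered in neither, 79 only at 0 mM nitrate, 46 only at 0.38 mM nitrate), coloured by whether they were also lowered at 75 or 150 mM NaCl. Lowering at 150 mM without 75 mM accounts for 37 of the 46 families lowered only at 0.38 mM nitrate, and for 32 of the 181 lowered in neither.

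At 0.75 mM nitrate, which the rule did not use, 8 members were lowered (2.61%, against 2.71% of the background), while 34 were raised (11.1%, against 4.06%). A value above every replete library was found in 165 members, where 40.6% of the background had one. At 0.38 mM nitrate 34 members were raised (11.1%, against 5.65% of the background) and at 0 mM 18 (5.88%, against 9.61%). Both of these libraries belong to the rule, which left out families lowered in both, so their shares test nothing. Raised at both 0.38 and 0.75 mM were 14 members (4.58%, against 1.56% of the background), and raised at 0.75 mM alone of the 3 were 16 (5.23%, against 1.87%). In the NaCl series 4 members were raised at 75 mM (1.31%, against 4.11% of the background) and 3 at 150 mM (0.980%, against 11.8%). The rule bars members from having their highest value at 300 or 600 mM NaCl, so their highest libraries are set beside the 6109 background families that also peaked elsewhere. This match is only partial. Unlike members, the 6109 families need not be lowered in salt, and the rule also used the 0 and 0.38 mM nitrate libraries. Nothing is therefore read from the members' shares beside those of the 6109 families. The highest value was that of 0 mM nitrate in 16.7% of members (26.2% of those families), 0.38 mM in 27.1% (12.9%), 0.75 mM in 25.5% (12.1%), 1.5 mM in 6.54% (3.19%) and 3 mM in 11.4% (10.7%). It was that of the control in 9.80% of members (4.68% of those families), 75 mM NaCl in 0.980% (3.83%) and 150 mM NaCl in 1.96% (26.5%).

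Raised at both 0 and 0.38 mM nitrate were 4 members (1.31%, against 2.21% of the background), which therefore went opposite ways in the 2 treatments. Family 533_c0 had 1060, 1418 and 848 at 0, 0.38 and 0.75 mM nitrate, against 64.5, 71.1 and 178 in the 1.5 mM nitrate, 3 mM nitrate and control libraries, and 45, 56.2, 16.6 and 12.5 at 75, 150, 300 and 600 mM NaCl. Its low-nitrate libraries were all above its replete libraries and these all above its salt libraries. Family 4461_c0 had 77.2, 41 and 46.6 at 0, 0.38 and 0.75 mM nitrate, against 9.78, 12.8 and 13.7 in the 1.5 mM nitrate, 3 mM nitrate and control libraries. It had 28.5 and 27.6 at 75 and 150 mM NaCl, above the replete level, and 4.39 and 1.04 at 300 and 600 mM. The widest contrast was in 906_c0, also picked once its values were known. It had 548, 1434 and 2091 at 0, 0.38 and 0.75 mM nitrate, against 6.03, 4.65 and 6.06 in the 1.5 mM nitrate, 3 mM nitrate and control libraries, and 2.78, 3.23, 1.43 and 0.88 at 75, 150, 300 and 600 mM NaCl. Its 3 low-nitrate libraries stood apart from all others, and its salt values lay under the replete ones, which were themselves low.

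**Figure D5:**
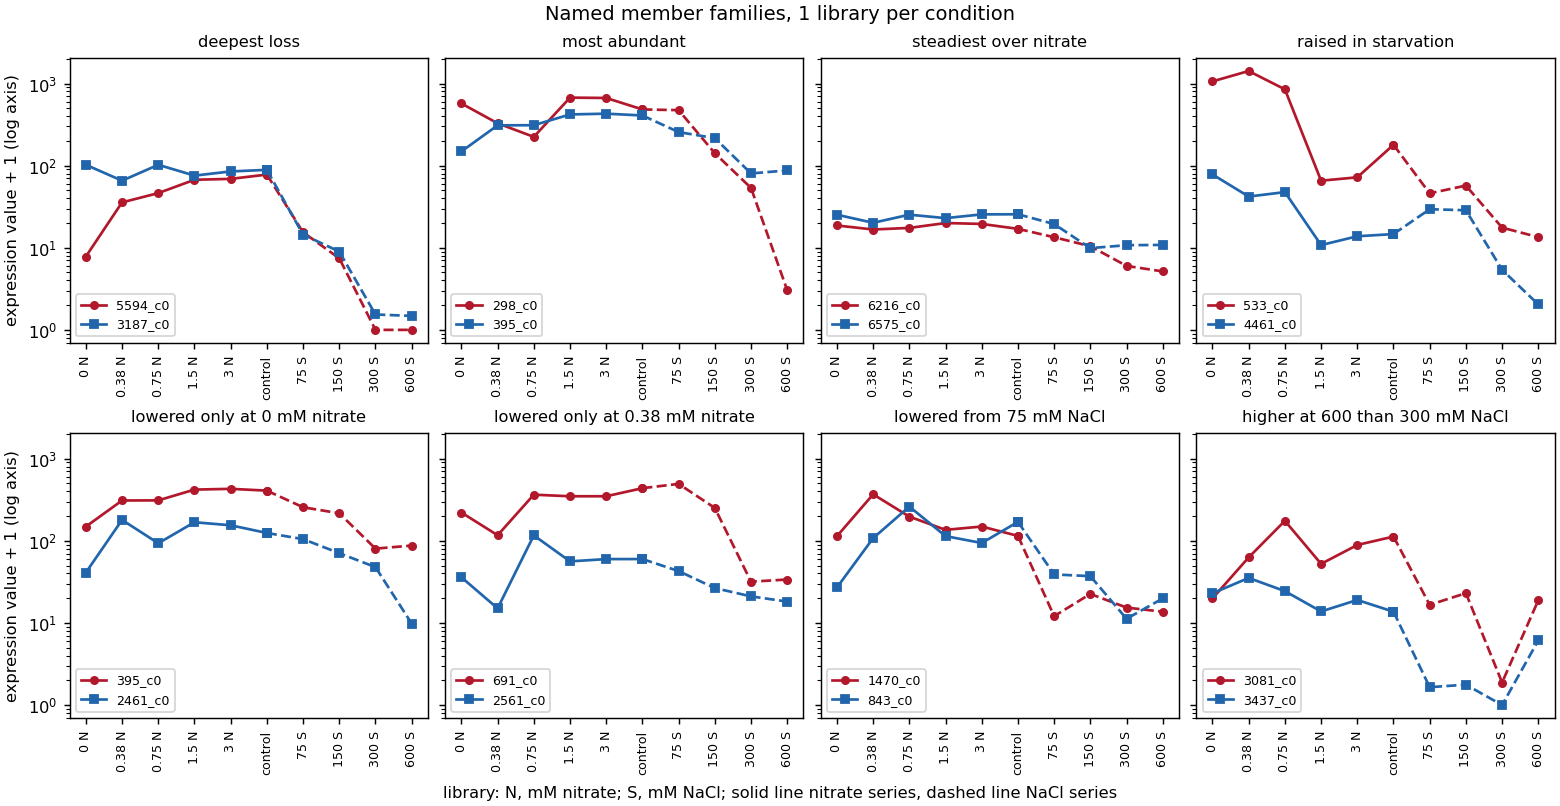
Expression value plus 1 on a log axis for the named members, 2 in each of 8 patterns, with the nitrate series as a solid line from 0 mM to the control and the NaCl series as a dashed line from the control to 600 mM, 1 library per condition. Every family is lower at 300 and 600 mM NaCl than at 1.5 mM nitrate, 3 mM nitrate and the control, while the 0 mM nitrate value runs from 6.81 (5594_c0) to 1060 (533_c0).

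The families that met the salt condition but were lowered at both 0 and 0.38 mM nitrate numbered 56 (0.669% of the background), so members made up 84.5% of the 362 families lowered at both salt concentrations. Members had a median replete mean of 14.7 and the 56 families one of 21.4. At 75 mM NaCl the median log2 difference from the replete mean was -0.68 in members and -0.80 in the 56 families. At 300 and 600 mM NaCl, which the rule used, it was -1.88 and -2.25 in members and -2.64 and -2.69 in the 56 families. At 150 mM NaCl it was -0.96 in members and -2.31 in the 56 families. Of these 56, 45 were lowered there (80.4%, against 5.85% of the background). The 0.38 mM library, which decides between the groups together with that of 0 mM, shares the RAA code with the 150 mM library, and the part of that code in the 150 mM difference was not tested. At 0.75 mM nitrate 8 of the 306 members (2.61%) and 11 of the 56 families (19.6%) were lowered, against 2.71% of the background. The medians there were 0.32 in members and 0.04 in the 56 families. No test of these differences was made, since the groups were chosen from the same replete libraries.

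Family identifiers consist of a scaffold group number and a suffix, and 15 members (4.90%) shared their group number with another family in the table, against 4.92% of all families. The 15 lay in 14 groups, 1 of which held 2 members, 449_c0 and 449_c2. Family 449_c0 had 13.4 and 30.3 at 300 and 600 mM NaCl, against 71.2, 101 and 116 in the 1.5 mM nitrate, 3 mM nitrate and control libraries. Family 449_c2 had 12.6 and 5.05 at 300 and 600 mM NaCl, against 57.8, 65 and 77.8 in the same libraries. At 150 mM NaCl they differed, with 158 for 449_c0 and 22.1 for 449_c2. The other 14 families of these groups were not members. Leaving members out nearly fixes that such families are not lowered at both salt concentrations, since 0.669% of the background is so without being a member, so nothing is read from them as a group. Singly, 0 of the 14 were lowered or raised at 300 mM, and 1 was lowered and 1 raised at 600 mM. As an example chosen once its values were known, beside member 4048_c0, family 4048_c1 had 15.7, 15.4, 15.6 and 15.6 at 75, 150, 300 and 600 mM NaCl, against 16.3, 16.6 and 13.9 in the 1.5 mM nitrate, 3 mM nitrate and control libraries. No label says how families were split from a group, and families of 1 group can share reads.

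Membership was close to the threshold for some families. The salt gap was under 1.1 log2 units in 45 members, and 46 other families that met the starvation condition missed the salt condition by less than 0.1. The families named here were the nearest on each side, without the filter of at least 5 in each replete library. Just inside, 4461_c0 had a log2 difference of -1 between the higher salt library and the lowest replete library, and 11594_c0 one of -1.01. The lowest replete value was 1.37 in 11594_c0, and 4.12 in 12656_c0 just outside. Just outside, the difference was -0.996 in 3846_c0 and -0.994 in 12656_c0. At the starvation condition, 9 members were within 0.1 of being lowered at both concentrations, the nearest at 0.97 below the lowest replete library, and 6 of the 56 families lowered by both were within 0.1 on the other side, the nearest at 1.02 below.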

How the data were processed

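Poly(A)-selected RNA of 10 cultures was sequenced, 1 library per condition. The deposited values are signal: expression levels with 2 decimals and different totals per library. They were taken as already scaled for feature length and library depth, which these traits do not settle. The sources used here do not say whether they are FPKM or TPM. Per the submitters' processing notes, Bowtie 0.12.8, RSEM 1.2.0 and edgeR 3.0.8 were used, with no role or order given. Read depth is unknown, so neither counting intervals nor detection limits are given, and a family with 0 is described as listed at 0.

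All 10 columns were used (0 left out). Calls were made on log2(value + 1) with Python 3.11.15 and pandas 2.3.3, with a threshold of 1 log2 unit and no filter on low values. Log2 differences understate changes of low families. Libraries were grouped by the labelled condition, and no test was run, because every condition has 1 library and the members were chosen from these values. Named families, 2 per pattern, were taken by a fixed rule among members with at least 5 in each replete library, except where stated. The members and patterns were chosen with earlier results of these data known. Alternatives were other pseudocounts, scalings, filters, thresholds, replete references and arms of the rule. No gene list could be matched to families, so none was used.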

Additional observations from a re-analysis of the deposited data

How the results depend on the processing

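The number of members, 306, was 146 with a pseudocount of 5 (pseudocount 1 in the report), 533 with equal library totals, 165 and 103 with thresholds of 1.5 and 2 log2 units, 771 with 600 mM NaCl as the only salt condition and 181 when neither starvation library could be lowered. Under the other 9 alternatives it was 216 to 446, within 1.5 times the main count. Median-ratio scaling gave 372 members, 304 of them shared with the 306. The share lowered at 75 mM NaCl, 19.9%, was 15.0% with 300 mM and 8.82% with 600 mM NaCl as the only salt condition. The share lowered at 150 mM NaCl, 42.8%, was 34.9% with a pseudocount of 5, 52.7% with median-ratio scaling, 36.4% and 32.0% with thresholds of 1.5 and 2, 31.8% and 31.4% with 300 or 600 mM alone, and 30.9% with neither starvation library lowered. The background share lowered at 150 mM NaCl, 5.85% in the report, moved the same way under several of these. It was 3.13% with a pseudocount of 5, 8.97% with median-ratio scaling, and 3.26% and 2.10% with thresholds of 1.5 and 2. Where only an arm of the rule changed, the background kept 1.15% at 75 mM and 5.85% at 150 mM NaCl. With neither starvation library lowered, 1.105% of members were lowered at 0.75 mM nitrate (2.61% in the report) and, by construction, 100% were lowered in neither starvation library. That share, 59.2% in the report, was 51.8% and 65.8% with pseudocounts of 0.5 and 5, 65.7% with replete values of at least 5, 68.0% with a threshold of 2, 51.1% against the mean of the replete libraries, 52.2% without the 1.5 mM library in the reference, and 79.7% with 0 mM nitrate as the only starvation condition (without the 0.38 mM library, 227 members). Raised in both starvation libraries were 0% with a threshold of 2, in place of 1.31%. A filter on low values leaves fewer families by construction. A stricter threshold makes the salt condition harder to meet, but it also excludes fewer families as lowered in both starvation libraries. With thresholds of 1.5 and 2, 150 of the 165 and 87 of the 103 members were among the 306. For the other moves the cause was not tested. All shares were judged against the 95% exact binomial interval of the main value, which covers counting of families only. Salt differences under the alternatives were followed only for members named as the top 2 of a pattern. With a pseudocount of 5, 3 of these no longer met the rule, at -0.65 in 4461_c0, -0.81 in 3437_c0 and -0.86 in 6575_c0. A member with any replete value under 5 cannot meet the rule with this pseudocount, whatever its salt values. That held for 90 members, among them 906_c0 (lowest replete value 4.65) and 11594_c0 (1.37), both named above. No paired analysis was possible because each condition has 1 library. Depth is unknown, and families with values of a few units, such as most of the 46 lowered only at 0.38 mM nitrate, carry the least precise differences.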
